A study of Mus musculus with 6 samples.

Results

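Ret and 9 other genes for receptor tyrosine kinases (Kit, Met, Egfr, Erbb2, Erbb3, Fgfr1, Fgfr2, Igf1r and Insr) were followed in mouse preSC cells with and without hairpins against Crebbp. They are 10 of the 23284 gene names in the count tables, and 9 of them were among the 13390 genes with enough reads for a test, Erbb2 being the exception. The 10 were chosen by their counts in the 6 libraries and their shCrebbp against control values, which were already known. Those values are therefore given here as a description, and they support nothing further. No p-value of a single receptor is printed for that contrast, and the calls and counts of receptors at a threshold are description as well.

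Receptor tyrosine kinases are single-pass membrane proteins. Most bind a growth factor outside the cell, pair up and phosphorylate each other on tyrosine. They then recruit adaptors that switch on the RAS-ERK and PI3K-AKT routes. RET is unusual in that its ligands of the GDNF family first bind a co-receptor, GFRα, which is tethered to the membrane by a lipid anchor. RET is known from neural crest derivatives and neuroendocrine cells and, in mutated form, from medullary thyroid cancer, a neuroendocrine tumour.

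The study measured poly(A) RNA by sequencing in 6 libraries of preSC, a line that the labels class as a precursor of small cell lung cancer (SCLC), to find genes that depend on Crebbp, the gene for the histone acetyltransferase CREB-binding protein. All vectors were lentiviral and built on pLKO.1. The shCrebbp group held 3 libraries, titled with the numbers 1, 2 and 5. Each number was taken to name another hairpin against Crebbp (hairpins 1, 2 and 5). The control group held 2 libraries with the empty vector (shEmpty 1 and shEmpty 2) and 1 with a non-silencing hairpin (shNS). All 6 were thus the same cell line after infection with a vector, and no uninfected cells are among them. The labels do not say whether libraries came from separate cultures, so SDs and p-values cover the spread from library to library alone, which may be technical and, within shCrebbp, takes in the differences among the hairpins.

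Between 13622020 and 14651158 reads fell in genes in the shCrebbp libraries, and between 13687770 and 19804949 in the controls, so that 1 CPM (the read count scaled to library size by the TMM method) stood for 13.6 to 19.6 reads. The targeted gene, Crebbp, stood at 46.2, 58.3 and 48.9 CPM with hairpins 1, 2 and 5, against 66.2, 69.6 and 69.4 CPM with shEmpty 1, shEmpty 2 and shNS, a difference of -0.42 ± 0.10 on the log2 scale (SE) that did not pass (edgeR quasi-likelihood test, adjusted p = 0.0999). Of the 13390 genes tested, 168 (1.25%) passed an adjusted p of 0.05, 131 of them lower and 37 higher with shCrebbp. That count moved with each library: it was 368, 101 and 389 without hairpin 1, 2 or 5, and 0, 0 and 48 without shEmpty 1, shEmpty 2 or shNS. In the pair of fits with no call, 1332 genes without shEmpty 1 and 1238 without shEmpty 2 had an unadjusted p under 0.05, and DESeq2 called 250 and 223 while limma-voom called 0 in both.

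Markers of the labelled cell type were present. The summed level of 11 neuroendocrine markers was 6990 to 8780 CPM with shCrebbp and 8090 to 9210 CPM in controls. None of the 11 was called by edgeR, although 5 had an unadjusted p under 0.05 (16.5% of all genes did). Of these 5, 4 were lower with shCrebbp and 1 higher (8.46% and 7.99% of all genes). DESeq2 called 2, Calca lower and Ncam1 higher, and limma-voom called 1, Calca lower. Calca, the calcitonin gene, averaged 875 ± 267 CPM with shCrebbp and 1800 ± 209 CPM in controls. Ncam1 averaged 309 ± 85.2 CPM with shCrebbp and 193 ± 21.5 CPM in controls. The 5 epithelial markers, of which Krt19 was near 0, summed to 1060 to 1520 CPM with shCrebbp and 2240 to 2800 CPM in controls. By edgeR 3 of the 4 tested fell (Krt8, Krt18 and Cdh1, adjusted p = 0.0131, 0.00593 and 0.0361), as 0.978% of all genes did. None of the 3 was called without shEmpty 1 or without shEmpty 2, and 2 were called without hairpin 2 or without shNS. Of markers of other cells, those defining leukocytes (Ptprc), endothelium (Cdh5, Cldn5), fibroblasts (Col1a1, Col3a1) and mast cells (5 of 7 at 0 reads in all libraries) were at or near 0, although Vwf gave the endothelial list a sum of 164 to 412 CPM with shCrebbp and 406 to 439 CPM in controls. The fibroblast list, mostly Dcn, summed to 13.0 to 63.0 CPM with shCrebbp and 35.8 to 44.6 CPM in controls, and the leukocyte list, mostly Coro1a, to 68.3 to 83.8 CPM with shCrebbp and 75.5 to 84.3 CPM in controls. The part of these markers in the receptor values was not tested, and in RNA from bulk cells fewer cells of a type and less RNA per cell cannot be told apart.

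Levels of different genes were compared per transcript length, in RPKM (CPM per kilobase of transcript). Ret had the highest level of the 10, 33.5 ± 6.73 RPKM with shCrebbp and 58.2 ± 6.35 RPKM in controls (SD, n = 3 each, as throughout). Kit, the receptor for stem cell factor, had 18.5 ± 3.50 RPKM with shCrebbp and 19.7 ± 1.07 RPKM in controls. Egfr, the receptor for epidermal growth factor and TGFα, had 6.12 ± 2.08 RPKM with shCrebbp and 13.2 ± 1.74 RPKM in controls, or 8.52 RPKM in controls if its longest transcript set the length. In controls these 3 were each separated from their neighbours by more than the spread.

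With shCrebbp, Fgfr2, Igf1r and Insr stood at 3.42 ± 2.24, 4.22 ± 1.14 and 7.70 ± 0.480 RPKM, and Insr lay above both others in each of these libraries. In controls the same 3 genes lay so close (6.92 ± 0.325, 6.73 ± 0.431 and 6.48 ± 0.308 RPKM) that their ranges overlapped and no order could be read from them. Met had 4.26 ± 2.37 RPKM with shCrebbp and 4.73 ± 0.717 RPKM in controls, Erbb3 had 1.55 ± 0.326 RPKM with shCrebbp and 3.0 ± 0.573 RPKM in controls, and Fgfr1 had 1.51 ± 0.539 RPKM with shCrebbp and 0.683 ± 0.0988 RPKM in controls. Erbb3 and Fgfr1 were thus at a like level with shCrebbp, while in controls Erbb3 lay above Fgfr1.

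Among all 54 receptor tyrosine kinase genes examined, Ret ranked 4 by mean RPKM with shCrebbp and 1 in controls. With shCrebbp the genes above it were Ryk (a Wnt receptor with an inactive kinase domain), Ephb3 (an ephrin receptor) and Ddr1 (a collagen receptor), at 42.5 ± 0.841, 38.7 ± 3.43 and 35.6 ± 3.33 RPKM, against 41.9 ± 1.08, 43.2 ± 0.880 and 39.9 ± 3.87 RPKM in controls. Ret itself ranged from 27.3 to 40.6 RPKM over the shCrebbp libraries, which takes in the mean of Ddr1, so its order against Ddr1 is not firm. Kit ranked 6 in both groups, and Egfr ranked 13 with shCrebbp and 8 in controls. By contrast, 13 of the 54 had at most 10 reads in every library, and Erbb2 was the one member among them. Ranks within a group rest on mean levels and on the transcript lengths of a reference annotation.

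**Figure D1:**
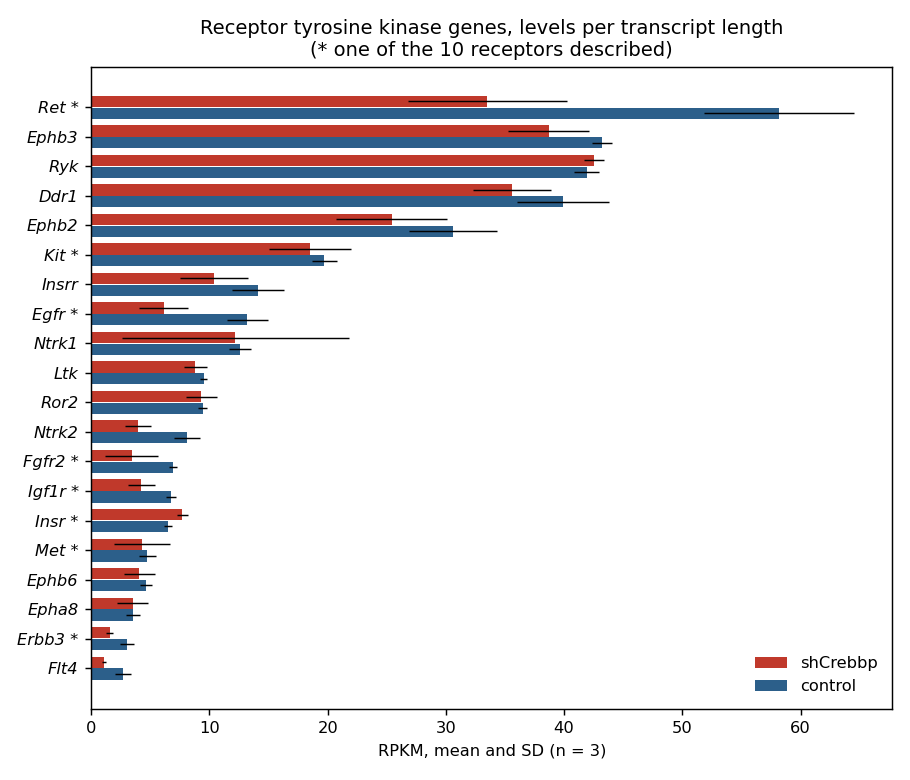
Mean level in RPKM (bars; lines, SD over 3 libraries) of the 20 receptor tyrosine kinase genes with the highest control mean, shCrebbp above control for each gene; stars mark those of the 10 receptors followed here that are among them. Ret has the longest control bar (58.2 RPKM) while its shCrebbp bar (33.5 RPKM) is shorter than those of Ryk, Ephb3 and Ddr1, and the bars of Kit nearly match.

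Promoter sequences could be set beside these levels for 6 of the 10 genes, since the RefSeq table of build GRCm38.p6 holds Kit, Met, Igf1r, Fgfr2, Egfr and Erbb2; Ret, Erbb3, Fgfr1 and Insr were not matched. CREB, the factor that gave CREB-binding protein its name, recognises the cAMP response element TGACGTCA and its short site TGACG, and many promoters without a TATA box carry the GC box GGGCGG; each was searched on both strands in the 250 bases before the start, a full element also counting as a short site. Of 32851 such windows in the table, 1.55% held the full element, 17.8% the short site and 32.7% the GC box. The windows of Egfr, Kit and Erbb2 are printed because the 3 genes stand for 3 patterns of counts, Egfr with lower levels under shCrebbp, Kit with overlapping groups and Erbb2 with almost no reads. Capitals mark short sites and GC boxes on either strand, so that CGTCA and CCGCCC are the reverse strand of each.
Egfr promoter window, chr11:16751953-16752202, strand +: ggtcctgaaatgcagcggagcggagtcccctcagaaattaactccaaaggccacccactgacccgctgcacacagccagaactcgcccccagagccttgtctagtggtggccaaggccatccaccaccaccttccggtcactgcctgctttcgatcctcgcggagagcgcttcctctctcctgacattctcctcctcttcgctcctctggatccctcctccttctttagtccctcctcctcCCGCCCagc
Kit promoter window, chr5:75574737-75574986, strand +: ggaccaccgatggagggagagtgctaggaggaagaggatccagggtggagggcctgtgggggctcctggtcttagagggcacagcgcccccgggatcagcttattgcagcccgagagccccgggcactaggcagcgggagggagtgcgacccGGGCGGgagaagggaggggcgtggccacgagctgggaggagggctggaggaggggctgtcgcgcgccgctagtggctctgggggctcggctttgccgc
Erbb2 promoter window, chr11:98412234-98412483, strand +: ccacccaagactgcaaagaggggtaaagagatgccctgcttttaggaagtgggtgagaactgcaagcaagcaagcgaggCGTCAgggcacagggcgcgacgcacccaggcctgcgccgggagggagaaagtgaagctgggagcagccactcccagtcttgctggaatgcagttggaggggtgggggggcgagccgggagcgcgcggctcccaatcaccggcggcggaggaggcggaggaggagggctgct
No full element was found in any of the 6 windows, and the short site was found once, in the Erbb2 window. GC boxes numbered 3 in Met, 2 in Igf1r, 1 each in Kit and Egfr, and 0 in Fgfr2 and Erbb2. The G and C content was 60.8% (Egfr), 70.8% (Kit), 66.0% (Erbb2), 74.0% (Met), 77.6% (Igf1r) and 44.0% (Fgfr2), beside a median of 52.4% over all windows. These matches describe letters in 250 bases and say nothing of binding.

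Ret was the gene with the most reads behind it. It had 162, 136 and 202 CPM with hairpins 1, 2 and 5, against 318, 296 and 255 CPM with shEmpty 1, shEmpty 2 and shNS. Every hairpin library lay below every control, hairpin 5 the nearest to them and shNS the lowest control. The means were 167 ± 33.5 CPM with shCrebbp and 290 ± 31.6 CPM in controls, a 1.74-fold lower level (log2 fold change -0.80 ± 0.15, SE). These rest on 1905 to 2970 reads with shCrebbp and 3500 to 6220 in controls, so that counting error alone was 1.27% to 2.29% of each value, far under the spread between libraries.

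Of the ErbB receptors, Egfr and Erbb3 were also lower with shCrebbp. Egfr had 31.7, 33.1 and 56.0 CPM with hairpins 1, 2 and 5, against 99.5, 84.4 and 77.0 CPM in shEmpty 1, shEmpty 2 and shNS, a 2.16-fold lower mean (log2 fold change -1.11 ± 0.22). The groups did not overlap, and hairpins 1 and 2 lay close together while hairpin 5 stood higher. Erbb3, whose product binds neuregulins and has little kinase activity of its own, had 7.57, 8.90 and 11.4 CPM with hairpins 1, 2 and 5, against 20.2, 19.9 and 14.1 CPM in shEmpty 1, shEmpty 2 and shNS, a log2 fold change of -0.96 ± 0.20. Its order of libraries was that of Egfr, with hairpin 5 the highest of the shCrebbp libraries and shNS the lowest control. Erbb4, the remaining receptor of this family, is not one of the 10 and was named after its values were seen; it had 0.661, 3.56 and 2.45 CPM with hairpins 1, 2 and 5, against 3.12, 2.19 and 1.39 CPM in shEmpty 1, shEmpty 2 and shNS, with overlapping groups (log2 fold change -0.02 ± 0.54).

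Erbb2, the ErbB receptor with no known ligand of its own and the usual partner of ERBB3, was practically unread. It had 3, 0 and 1 reads with hairpins 1, 2 and 5, against 0, 1 and 1 reads in shEmpty 1, shEmpty 2 and shNS, at or under the 3 reads that a count of 0 allows (0.153 to 0.220 CPM per library, counting error only). No fold change can be given. Its neighbours on the chromosome were well read in the same libraries, Grb7 with 524 to 1681 reads, Pgap3 with 343 to 477, Stard3 with 410 to 475 and Mien1 (1810046J19Rik in the files) with 1145 to 1644. In GENCODE M21, exon bases of Erbb2 overlap those of Mien1, and the setting for reads on overlapping genes is not given in the sources used here. Whether that setting bears on the Erbb2 value was not tested.

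Kit, the second in level, overlapped between the groups. It had 108, 75.8 and 106 CPM with hairpins 1, 2 and 5, against 109, 99.9 and 99.1 CPM in shEmpty 1, shEmpty 2 and shNS (log2 fold change -0.09 ± 0.14). Hairpin 2 alone lay below the controls, and without it the log2 fold change was 0.06. The ratio of Ret to Kit RPKM stood at 1.57, 1.88 and 2.0 with hairpins 1, 2 and 5, against 3.06, 3.11 and 2.71 in shEmpty 1, shEmpty 2 and shNS.

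Met, the receptor for hepatocyte growth factor, spread more over the hairpins than any other member. It had 8.60, 30.7 and 20.3 CPM with hairpins 1, 2 and 5, against 18.6, 22.3 and 25.3 CPM in shEmpty 1, shEmpty 2 and shNS. Hairpin 1 lay below all controls, hairpin 2 above all of them and hairpin 5 among them, a 3.57-fold range with shCrebbp against 1.36-fold in controls. The log2 fold change was -0.15 ± 0.37, and it was 0.21 without hairpin 1.

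The fibroblast growth factor receptors lay on opposite sides of the controls. Fgfr2 had 22.6, 6.84 and 9.32 CPM with hairpins 1, 2 and 5, against 27.5, 25.6 and 25.2 CPM in shEmpty 1, shEmpty 2 and shNS (log2 fold change -1.02 ± 0.37, and -1.69 without hairpin 1). Fgfr1 had 4.41, 9.12 and 6.33 CPM with hairpins 1, 2 and 5, against 2.50, 3.29 and 3.21 CPM in shEmpty 1, shEmpty 2 and shNS (log2 fold change 1.14 ± 0.30). For both genes hairpin 1 was the nearest to the controls and hairpin 2 the farthest. Fgfr1 rests on 60 to 128 reads with shCrebbp and 44 to 54 in controls, a counting error of 8.84% to 15.1% per library.

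The ratio of Fgfr2 to Fgfr1 RPKM put the pair on one scale. This ratio stood at 5.96, 0.873 and 1.72 with hairpins 1, 2 and 5, against 12.8, 9.06 and 9.13 in shEmpty 1, shEmpty 2 and shNS (means 2.85 ± 2.73 with shCrebbp and 10.3 ± 2.13 in controls). With hairpin 2 alone Fgfr1 had the higher value of the pair. That library held 128 reads of Fgfr1 and 96 of Fgfr2, with counting errors of 8.84% and 10.2%, so this order is not firm. The annotation overlaps exon bases of Fgfr2 with Ctbp2 and of Fgfr1 with Gm16159, and the part of this overlap in their counts was not tested. The other 2 receptors of this family in the files, Fgfr3 and Fgfr4, chosen for mention after their values were seen, lay above the controls with each hairpin without being called. Fgfr3 had 6.98 to 10.1 CPM with shCrebbp and 4.76 to 5.77 CPM in controls, and Fgfr4 had 1.09 to 1.76 CPM with shCrebbp and 0.511 to 0.869 CPM in controls (edgeR adjusted p = 0.160 and 0.199).

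The insulin-type receptors also parted. Igf1r, the receptor for insulin-like growth factors, had 63.1, 41.5 and 39.7 CPM with hairpins 1, 2 and 5, against 74.8, 73.2 and 82.4 CPM in shEmpty 1, shEmpty 2 and shNS (log2 fold change -0.68 ± 0.17). Insr, the insulin receptor, had 77.0, 71.0 and 68.3 CPM with hairpins 1, 2 and 5, against 62.4, 57.2 and 62.0 CPM in shEmpty 1, shEmpty 2 and shNS (log2 fold change 0.25 ± 0.09). Neither pair of groups overlapped, and hairpin 1 was again the shCrebbp library nearest to the controls for Igf1r, though not for Insr. Igf1r over Insr, as a ratio of RPKM, came to 0.673, 0.480 and 0.478 with hairpins 1, 2 and 5, against 0.984, 1.05 and 1.09 in shEmpty 1, shEmpty 2 and shNS. The 2 transcripts were thus about even in controls, while Insr was the more abundant in each shCrebbp library.

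**Figure D2:**
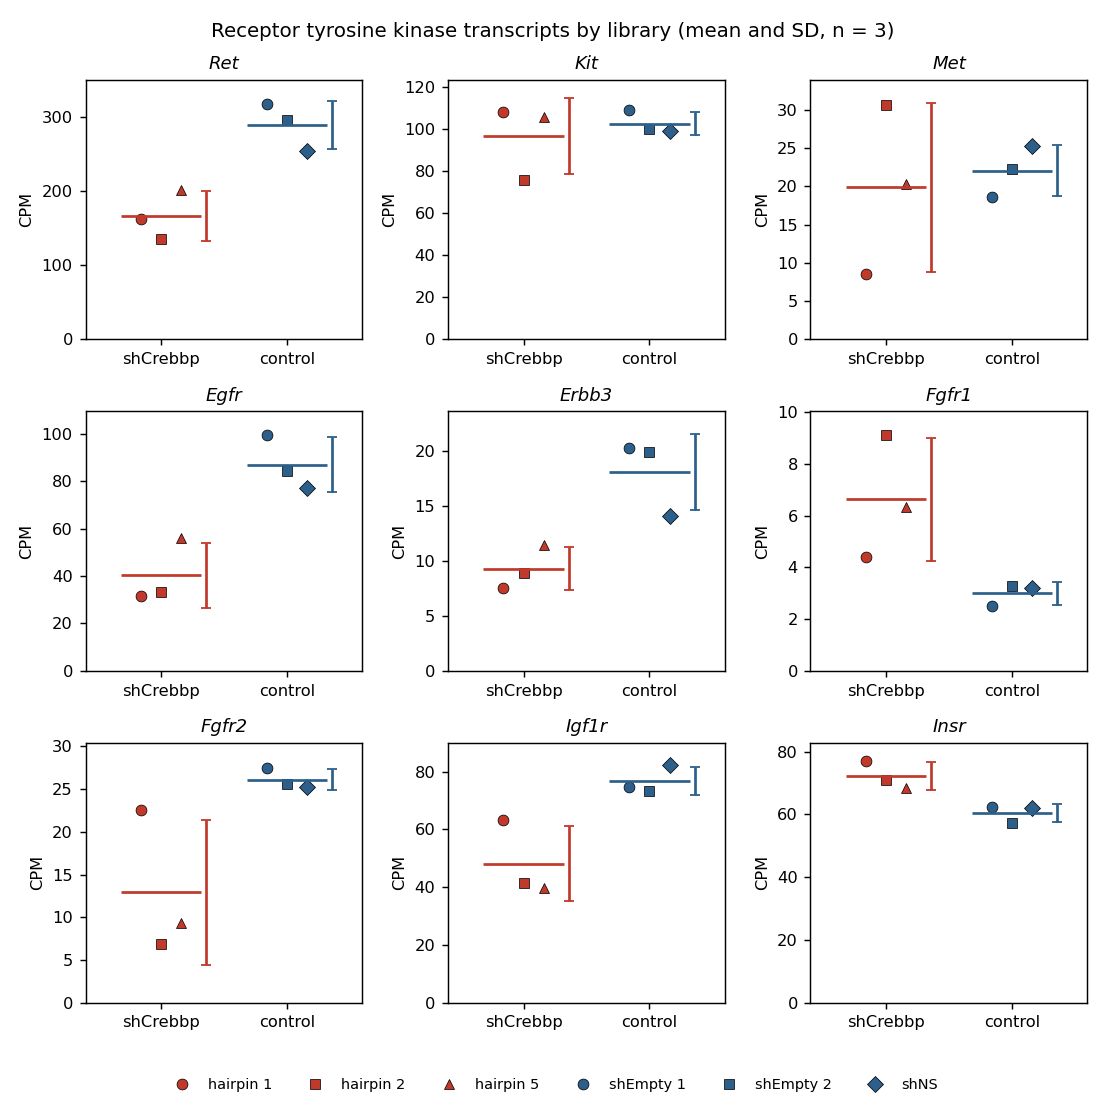
Level in CPM of 9 receptor genes in each library (points; horizontal line, mean; vertical line, SD, n = 3), shCrebbp on the left and control on the right of each panel. Ret, Egfr, Erbb3, Fgfr2 and Igf1r lie below all controls with each hairpin, Fgfr1 and Insr lie above, and Kit and Met overlap.

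**Figure D3:**
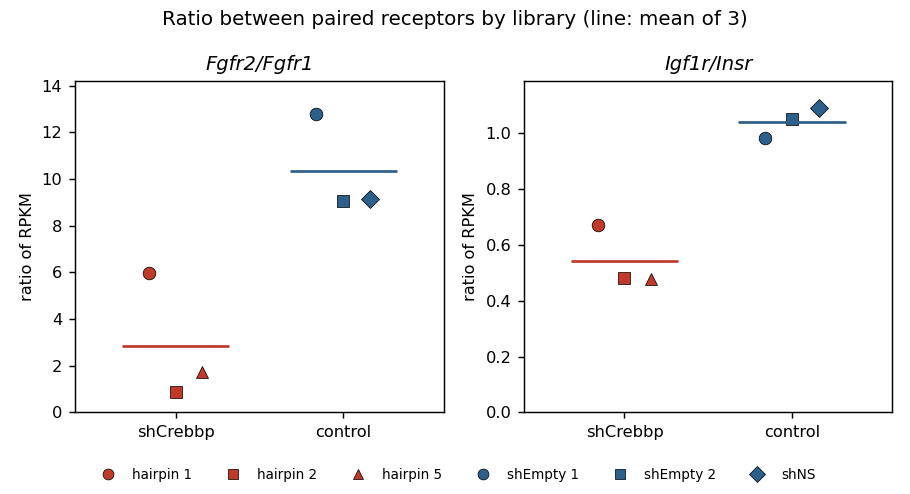
Ratio of RPKM of Fgfr2 to Fgfr1 (left) and of Igf1r to Insr (right) in each library (points; line, mean of 3), shCrebbp left of control. The Igf1r to Insr ratio is 0.478 to 0.673 with shCrebbp and 0.984 to 1.09 in controls, and the Fgfr2 to Fgfr1 ratio spreads from 0.873 to 5.96 over the hairpins.

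Over the 9 tested receptors, 5 lay below all controls with each hairpin, 2 above and 2 overlapped; of all tested genes 11% lay below and 11.4% above. The median log2 fold change of the 9 was -0.68, beside 0.01 over all tested genes. None of the 9 passed the edgeR threshold, which 1.25% of all genes passed, and 7 had an unadjusted p under 0.05, as 16.5% of all genes did. Of these 7, 5 were lower (8.46% of all genes) and 2 higher (7.99%). DESeq2, which called 5.3% of genes (3.1% lower, 2.2% higher), called 5 of the 9 (Ret, Egfr, Erbb3 and Igf1r lower, Fgfr1 higher), and limma-voom, which called 1.19%, called Ret and Egfr. Since the 9 were listed with this contrast known, nothing is read from these shares.

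The hairpins fell into different orders for different receptors. As log2 ratios to the control mean, hairpins 1, 2 and 5 gave -0.84, -1.09 and -0.52 for Ret, -1.46, -1.39 and -0.64 for Egfr, and -1.26, -1.02 and -0.66 for Erbb3. In these 3 genes hairpin 5 was the nearest to the controls. The same ratios were -0.21, -1.93 and -1.48 for Fgfr2, -0.28, -0.89 and -0.95 for Igf1r, and 0.55, 1.6 and 1.08 for Fgfr1. In those 3 hairpin 1 was the nearest. For Insr the ratios were 0.35, 0.23 and 0.17, for Kit 0.08, -0.44 and 0.05, and for Met -1.36, 0.48 and -0.12. Hairpin 5 was the nearest to the control mean for Insr, Kit and Met as well. The ratios of Crebbp itself were -0.57, -0.23 and -0.48 with hairpins 1, 2 and 5, and the part of these differences in the receptor values was not tested.

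**Figure D4:**
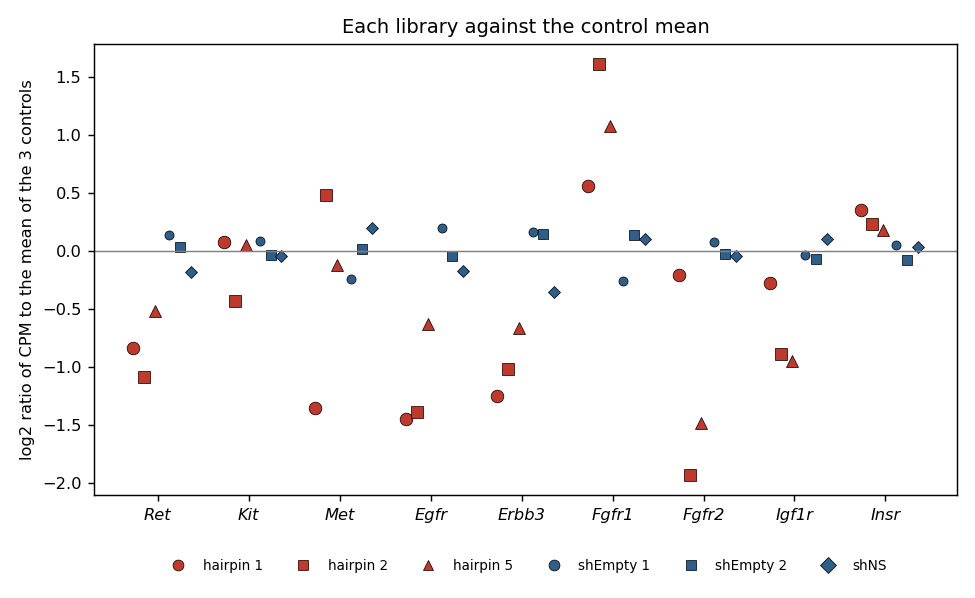
Log2 ratio of CPM in each library to the mean of the 3 controls for 9 receptor genes, shCrebbp hairpins left of the controls within each gene. Hairpin 5 (triangles) is the nearest to 0 of the hairpins for Ret, Kit, Met, Egfr, Erbb3 and Insr. Hairpin 1 (red circles) is the nearest for Fgfr1, Fgfr2 and Igf1r, and Met spreads from -1.36 to 0.48.

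No difference between the control vectors was detected for these genes. In a fit with shNS and shEmpty as separate groups, where the lone shNS library is taken to vary as the rest do, edgeR called 0 of 13390 genes between shNS and shEmpty (0%), with 100 at an unadjusted p under 0.05 and 0 by limma-voom, and none of the 9 receptors had an unadjusted p under 0.05. The log2 fold change of shNS over shEmpty ranged from -0.51 ± 0.28 for Erbb3 to 0.31 ± 0.59 for Met, and it was -0.26 ± 0.22 for Ret. With 1 library of shNS, a difference of that size could not be told from the spread.

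The expression pattern of Ret was most closely matched by Cables1, Lmna, Casr, Mtus2 and Mctp2, out of 8610 genes whose mean log2 CPM was 4 or more. Likeness was the root mean square difference in log2 CPM over the 6 libraries after centring on the controls, which was 0.04, 0.06, 0.06, 0.07 and 0.08 in that order (Pearson r 0.995 to 0.986, as a description over 6 libraries that fall into 2 groups). Casr, the calcium-sensing receptor, had 13.5, 9.90 and 15.8 CPM with hairpins 1, 2 and 5, against 25.6, 24.3 and 20 CPM in shEmpty 1, shEmpty 2 and shNS. Lmna, which encodes lamins A and C of the nuclear envelope, had 199, 153 and 228 CPM with hairpins 1, 2 and 5, against 353, 336 and 286 CPM in shEmpty 1, shEmpty 2 and shNS. Hairpin 2 was the lowest library and hairpin 5 the nearest to the controls for both genes. This order is that of Ret because the genes were chosen for their likeness to it in these libraries.

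The partners that RET needs at the membrane were measured next. Gfra1, the co-receptor for GDNF, had 12.8, 28.5 and 33.7 CPM with hairpins 1, 2 and 5, against 53.3, 46.1 and 31.2 CPM in shEmpty 1, shEmpty 2 and shNS (log2 fold change -0.80 ± 0.33, edgeR adjusted p = 0.278). The groups overlapped, since hairpin 5 lay above shNS, and the mean difference equalled that of Ret on the log2 scale with a larger SE. The ratio of Ret to Gfra1 RPKM stood at 9.7, 3.65 and 4.6 with hairpins 1, 2 and 5, against 4.57, 4.92 and 6.29 in shEmpty 1, shEmpty 2 and shNS, with no separation of the groups. Gfra4, the co-receptor for persephin, had 1.91, 2.42 and 3.33 CPM with hairpins 1, 2 and 5, against 3.98, 4.08 and 2.48 CPM in shEmpty 1, shEmpty 2 and shNS (adjusted p = 0.517). Gfra2, the co-receptor for neurturin, was at most 1.21 CPM in every library and was not tested, and Gfra3 and Gfral were at or near 0.

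Of the ligands of RET, Gdnf had 0 reads in all 6 libraries. Nrtn (neurturin) had 17.0, 32.3 and 27.2 CPM with hairpins 1, 2 and 5, against 27.6, 28.0 and 23.4 CPM in shEmpty 1, shEmpty 2 and shNS (log2 fold change -0.05 ± 0.21). Artn (artemin), chosen after its values were seen, had 8.60, 9.05 and 10.2 CPM with hairpins 1, 2 and 5, against 14.6, 14.1 and 12.4 CPM in shEmpty 1, shEmpty 2 and shNS (log2 fold change -0.56 ± 0.14, edgeR adjusted p = 0.106). Artemin lay below the controls with each hairpin without passing the test, whereas neurturin overlapped. Pspn (persephin) was at most 0.570 CPM in every library.

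Of 40 ligand genes of these receptor families, 19 were tested. By edgeR 1 fell, Fgf5, and none rose, beside 0.978% and 0.276% of all genes. At an unadjusted edgeR p under 0.05, 3 were lower and 2 higher (8.46% and 7.99% of all genes). Of the 19, 3 lay below all controls with each hairpin and 4 above (11% and 11.4% of all genes). DESeq2, which called 5.3% of all genes, called 3, adding Artn and Hgf, all lower. The list's median log2 fold change was -0.05, beside 0.01 over all tested genes. Fgf5, a fibroblast growth factor, had 2.72, 3.13 and 2.38 CPM with hairpins 1, 2 and 5, against 11.1, 9.39 and 6.35 CPM in shEmpty 1, shEmpty 2 and shNS (log2 fold change -1.71 ± 0.26, edgeR adjusted p = 0.0277). Its groups did not overlap, and it lost the call without hairpin 2 (adjusted p = 0.0503), shEmpty 1 (0.157) or shEmpty 2 (0.187). Igf2, the ligand of IGF1R with the highest level, averaged 404 ± 51.1 CPM with shCrebbp and 405 ± 5.78 CPM in controls (log2 fold change 0.00 ± 0.10), and Igf1 was at most 0.365 CPM in every library. Kitl, which encodes stem cell factor, had 56.7, 51.7 and 61.3 CPM with hairpins 1, 2 and 5, against 51.3, 43.7 and 48.8 CPM in shEmpty 1, shEmpty 2 and shNS (edgeR adjusted p = 0.301). Hbegf, another ligand gene, named after its values were seen, had 6.10, 9.90 and 7.28 CPM with hairpins 1, 2 and 5. Its controls shEmpty 1, shEmpty 2 and shNS had 5.42, 3.78 and 4.31 CPM (log2 fold change 0.78 ± 0.25, edgeR adjusted p = 0.171). Both Kitl and Hbegf lay above all controls with each hairpin. Hgf, the ligand of MET, named after its values were seen, had 32.6, 18.2 and 23.4 CPM with hairpins 1, 2 and 5, against 59.2, 49.6 and 37.8 CPM in shEmpty 1, shEmpty 2 and shNS (log2 fold change -0.99 ± 0.23, adjusted p = 0.0858). It lay below the controls with each hairpin, whereas Met itself did not.

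Of the 15 co-receptor genes 10 were tested, and by edgeR 1 fell and none rose, beside 0.978% and 0.276% of all genes. The list's median log2 fold change was -0.21 (0.01 over all genes). All 3 with an unadjusted edgeR p under 0.05 were lower (8.46% of all genes). Sdc4, a cell-surface heparan sulphate proteoglycan that helps fibroblast growth factors bind their receptors, had 34.0, 39.4 and 27.6 CPM with hairpins 1, 2 and 5, against 69.1, 66.8 and 53.1 CPM in shEmpty 1, shEmpty 2 and shNS (log2 fold change -0.90 ± 0.15, edgeR adjusted p = 0.0350). It lost the call without shEmpty 1 (adjusted p = 0.198), shEmpty 2 (0.204) or shNS (0.0564). The most abundant of the list, Gpc1, another such proteoglycan, averaged 219 ± 15.1 CPM with shCrebbp and 253 ± 9.95 CPM in controls (log2 fold change -0.21 ± 0.08, adjusted p = 0.258), and Sdc1 averaged 85.1 ± 23.4 CPM with shCrebbp and 69.8 ± 3.93 CPM in controls.

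Among 44 other receptor tyrosine kinases, 28 were tested (median log2 fold change -0.01). By edgeR 1 fell and none rose, beside 0.978% and 0.276% of all genes. At an unadjusted edgeR p under 0.05 there were 10, with 7 higher and 3 lower (7.99% and 8.46% of all genes). DESeq2 called 7, of which 3 were lower (Flt4, Ntrk2 and Epha2) and 4 higher (Ptk7, Alk, Flt1 and Tyro3). Of all genes it called 3.1% lower and 2.2% higher. Flt4, a receptor for vascular endothelial growth factor C, had 7.94, 6.13 and 5.99 CPM with hairpins 1, 2 and 5, against 13.0, 16.3 and 21.0 CPM in shEmpty 1, shEmpty 2 and shNS (log2 fold change -1.32 ± 0.21, edgeR adjusted p = 0.0308). Its call was lost without hairpin 2 (adjusted p = 0.0708), hairpin 5 (0.0515), shEmpty 1 (0.0829), shEmpty 2 (0.187) or shNS (0.0990). Among those that missed the threshold, and named after their values were seen, Ptk7, a pseudokinase of Wnt signalling, had 40.1, 28.9 and 17.6 CPM with hairpins 1, 2 and 5, against 10.9, 11.6 and 11 CPM in shEmpty 1, shEmpty 2 and shNS (log2 fold change 1.37 ± 0.27, adjusted p = 0.0554). Ntrk2, the receptor for brain-derived neurotrophic factor, and Epha2, an ephrin receptor, had log2 fold changes of -1.05 ± 0.21 and -1.44 ± 0.30 (adjusted p = 0.0649 and 0.0669).

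Inside the cell, 28 of 30 adaptor genes were tested (median log2 fold change 0.04). By edgeR 1 fell and none rose, beside 0.978% and 0.276% of all genes. At an unadjusted edgeR p under 0.05 there were 6, with 3 higher and 3 lower (7.99% and 8.46% of all genes). Grb7, an adaptor that binds phosphorylated ERBB2 and RET and lies beside Erbb2 on the chromosome, had 41.7, 37.3 and 47.8 CPM with hairpins 1, 2 and 5, against 85.9, 84.7 and 71.9 CPM in shEmpty 1, shEmpty 2 and shNS (log2 fold change -0.94 ± 0.12, edgeR adjusted p = 0.0155). The groups stood well apart, and the call was lost without shEmpty 1 (adjusted p = 0.113) or shEmpty 2 (0.122). The abundant adaptors Crk, Grb2 and Ptpn11 had log2 fold changes of 0.14 ± 0.13, -0.02 ± 0.09 and 0.02 ± 0.07, none of them called.

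None of the 25 genes of the RAS-ERK and PI3K-AKT routes was called, and none had an unadjusted p under 0.05 in edgeR (16.5% of all genes did), nor was any called by DESeq2 or limma-voom; their median log2 fold change was 0.01. The smallest p-values were those of Hras1 (log2 fold change -0.21 ± 0.09, adjusted p = 0.318) and Inppl1 (-0.15 ± 0.07, adjusted p = 0.355), which encode a RAS protein and a lipid phosphatase. Akt1, an abundant kinase of the PI3K route, had a log2 difference of -0.11 ± 0.12.

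Of 21 feedback genes, which restrain receptors or ERK, 19 were tested, and 1 fell by edgeR (0.978% of all genes did) while none rose (0.276%). The 5 with an unadjusted p under 0.05 were all lower with shCrebbp, beside 8.46% of all genes lower and 7.99% higher at that p. The median log2 fold change of the list was -0.03, and 0.01 over all genes. Lrig1, a membrane protein that promotes breakdown of ErbB receptors and MET, had 37.4, 46.1 and 40.3 CPM with hairpins 1, 2 and 5, against 60.2, 63.6 and 66.0 CPM in shEmpty 1, shEmpty 2 and shNS (log2 fold change -0.62 ± 0.10, edgeR adjusted p = 0.0327). Its call was lost without shEmpty 1 (adjusted p = 0.157), shEmpty 2 (0.204) or shNS (0.128). Dusp6, a phosphatase of ERK, had 66.1, 82.9 and 127 CPM with hairpins 1, 2 and 5, against 153, 133 and 120 CPM in shEmpty 1, shEmpty 2 and shNS (log2 fold change -0.56 ± 0.22, adjusted p = 0.252). Its groups overlapped through hairpin 5, and Spry2 and Socs2, an inhibitor of receptor signalling each, had log2 fold changes of -0.15 ± 0.19 and 0.04 ± 0.13.

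**Figure D5:**
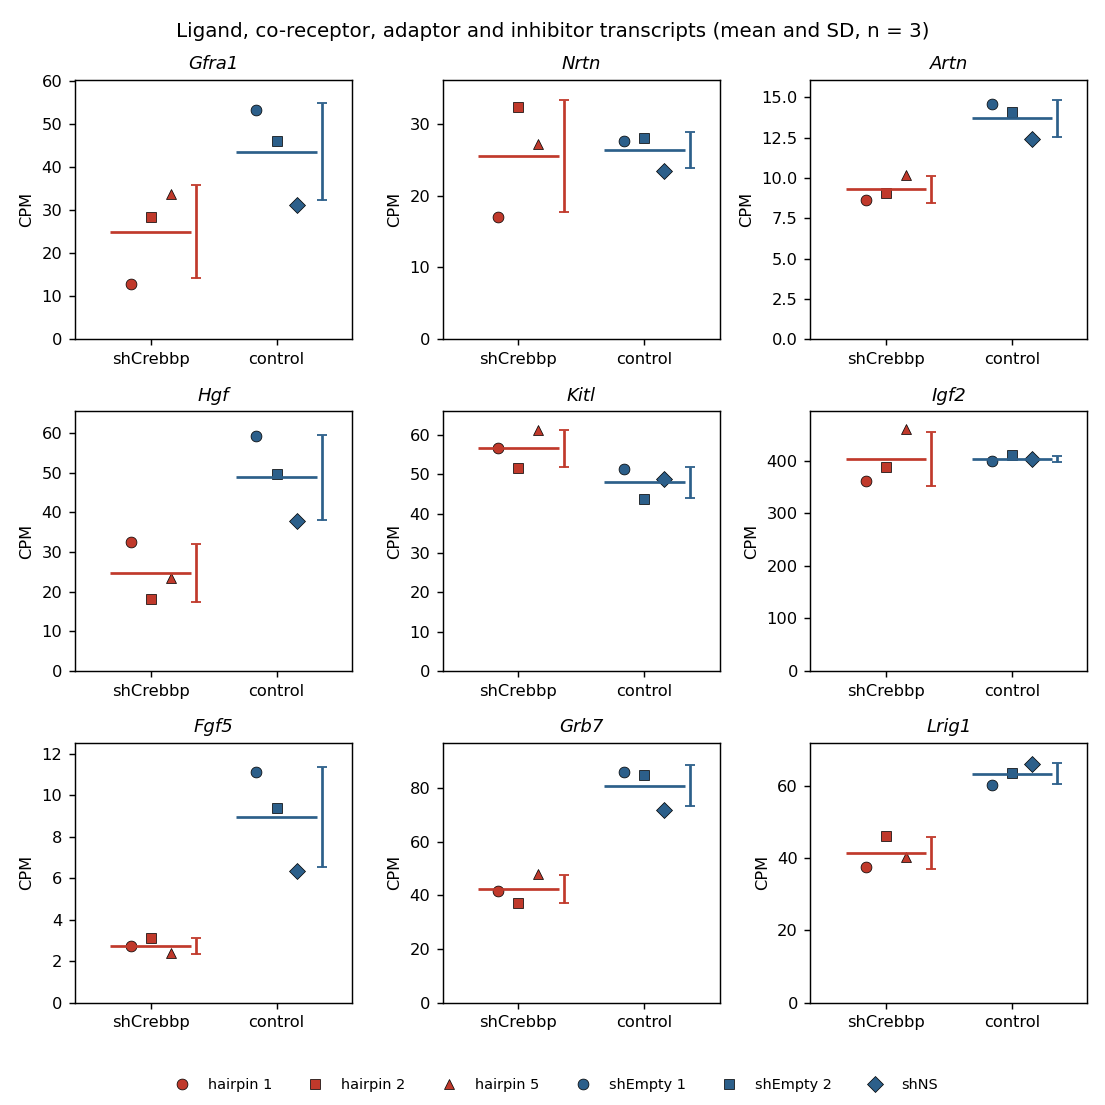
Level in CPM of 9 genes for co-receptors, ligands, an adaptor and an inhibitor of the receptors in each library (points; horizontal line, mean; vertical line, SD, n = 3), shCrebbp left of control. Fgf5, Grb7 and Lrig1 lie below all controls with each hairpin, while Gfra1, Nrtn and Igf2 overlap.

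Of 10 genes that respond to ERK, 9 were tested and none was called by edgeR; their median log2 fold change was -0.44 (0.01 over all genes). At an unadjusted p under 0.05, 4 were lower (8.46% of all genes), and DESeq2, which called 5.3% of all genes, called 1 (Etv4). Etv4, a transcription factor, had 6.39, 9.76 and 10.5 CPM with hairpins 1, 2 and 5, against 21.5, 18.4 and 15.0 CPM in shEmpty 1, shEmpty 2 and shNS (log2 fold change -1.04 ± 0.22, edgeR adjusted p = 0.0669). Fos stood at -0.51 ± 0.18 on the log2 scale (adjusted p = 0.205), and the 3 most abundant of the list, Egr1, Myc and Etv1, had log2 fold changes of 0.40 ± 0.19, 0.54 ± 0.31 and -0.49 ± 0.35, each with overlapping groups. Of 5 genes for factors known to act on Ret, Nkx2-1, the lung and thyroid factor, averaged 534 ± 48.2 CPM with shCrebbp and 533 ± 20.9 CPM in controls, and Hoxb5 averaged 116 ± 21.2 CPM with shCrebbp and 125 ± 9.76 CPM in controls. Neither was called, and the other 3 of the list had too few reads to be tested.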

How the data were processed

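RNA of 6 preSC libraries was taken from 500 ng of total RNA by oligo(dT) selection, per the labels' protocols, and reads were processed with bcl2fastq 1.8.2, TopHat2 2.0.12 and HTSeq 0.6.1 on build mm9, per the submitters' processing notes. For the annotation, the strand setting and the treatment of overlapping genes, nothing is stated in the sources used here. Each deposited file is a table of raw read counts by gene symbol, which the authors left unnormalized, and the HTSeq summary rows (24.8% to 28.9% of counts) entered neither library sizes nor tests.

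All genes were fitted with edgeR 4.0.16 in R 4.3.3 (TMM, filterByExpr, robust quasi-likelihood test, group as the only term), with Benjamini-Hochberg adjustment over 13390 genes and a threshold of 0.05. SEs were derived from each fold change and the F statistic of its test. CPM are TMM-scaled, and log2 CPM used for likeness to Ret has a prior count of 2. RPKM divides CPM by the median length of a gene's protein-coding transcripts in GENCODE M21 (build GRCm38), to which 22852 of 23284 names (98.1%) matched by symbol or RefSeq synonym. Overlaps of exons come from the same annotation. The shNS library was set against shEmpty in a fit with 3 groups. The procedure was tested on simulated counts.

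The alternatives were DESeq2 1.42.0, limma-voom (limma 3.58.1), RLE and upper quartile scaling, no filter, a filter of 1 CPM in 3 libraries, the longest transcript for length, and leaving out each library; DESeq2 and limma-voom without each control were added after the data were seen. Counting errors assume independent reads, since no molecular identifiers are named.

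The receptors and gene lists were chosen with earlier results of these data known. Genes outside the 10 receptors were named by rule: in each list up to 4 called genes by smallest p, or the 2 of smallest p where none was called, the 3 of highest RPKM, every GFRα gene, and the 5 genes most like Ret. Genes named beyond it are marked in the text, apart from those given only as absent or as markers of other cells. Provisional names were left out of the genes most like Ret. Some genes that the rule names are not reported here.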

Additional observations from a re-analysis of the deposited data

How the results depend on the processing

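Read depth limits Fgfr1 most among the tested receptors and leaves Erbb2 without a fold change, and 3 libraries a group with 3 different hairpins leave wide errors. The direction of log2 fold change held for Ret, Egfr, Erbb3, Fgfr1, Fgfr2, Igf1r and Insr under all 12 alternatives that changed the test, scaling, filter or libraries. For these genes every hairpin library lay on the same side of every control. Leaving out a library could therefore not be expected to turn the sign, and nothing is read from its holding there. It reversed for Kit without hairpin 2 (0.06) and for Met without hairpin 1 (0.21), 1 library deciding the sign in both; leaving out 1 library gave -0.18 to 0.06 for Kit and -0.60 to 0.21 for Met. The count of genes called was 168, against 736 with DESeq2 (58.6% of them lower, against 78.0%), and ranged from 0 to 389 when 1 library was left out. With 1 control left out as well, it ranged from 0 to 65 by limma-voom and from 223 to 480 by DESeq2. Of the 9 receptors 0 were called, against 5 with DESeq2, 2 with limma-voom (Ret, Egfr), 1 with upper quartile scaling (Ret), 2 with no filter (Ret, Erbb3), 1 with the 1 CPM filter (Ret) and 0 to 3 with 1 library left out; the cause was not tested. The median log2 fold change of all genes moved by under 0.1 with every scaling. With the longest transcript as length, 3 of 10 control levels moved by more than their SD, those of Egfr to 8.52, Met to 3.24 and Fgfr2 to 6.05 RPKM. Between shNS and shEmpty, 0 genes were called under each of the 3 alternatives as well. No paired analysis was possible because the numbers in the shCrebbp titles were taken to name vectors, and the groups share no number with a common source.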
